A study of Mus musculus with 16 samples.

Results

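The liver arms of the series held 2164 γδ T cells with RNA of granzymes and of NK cell receptors, out of 17568 called liver cells (12.3%) and of 51608 called cells in the whole series. Members were chosen by measured RNA. Called cells are barcodes with a minimum of 1000 RNA UMIs (counted molecules) and 500 genes, no more than 10% of their UMIs from mitochondrial genes, and a leading hashtag of at least 10 UMIs and at least 3 times the next hashtag. A called cell was a member when Gzma and Gzmb together had at least 2 UMIs and Klre1 and Klrb1c together at least 1 UMI, with no UMI of Cd163l1 (Scart1), 5830411N06Rik (Scart2) or Mki67. Levels of these 7 genes in the members are therefore a description of the choice.

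The cells came from male C57BL/6J mice given chow with 0.1% DDC, a compound that causes cholestatic bile duct injury, and were sorted from liver as living CD45+ CD3e+ TCRβ- TCRγδ+ cells. D0 mice had no DDC, and D5, D9 and D19 name the days of DDC diet. STOP mice had 18 days of DDC and then 7 days of normal chow. D5-DT mice carried Mgl2-DTR, in which the Mgl2 gene drives the diphtheria toxin receptor, and had diphtheria toxin on days -1 and 2 with 5 days of DDC. D0, D5 and D9 formed a pool, D19 and STOP another, and the liver and lymph node (LN) arms of D5-DT the last. Each condition was 1 hashtag arm with an unstated number of mice, so no difference between arms could be tested. Intervals of shares and levels are exact 95% intervals that cover counting error only, those of differences between shares are approximate ones combined from these limits, and a count of 0 is given with the share that 3 counts would make. Toxin was given in no arm without Mgl2-DTR, so genotype, toxin, cell depletion and pool cannot be told apart in D5-DT.

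γδ T cells are T lymphocytes whose receptor pairs a γ with a δ chain and signals through the CD3 complex. One branch makes IL-17 and, in this tissue, is marked by the scavenger receptors Scart1 and Scart2. Another makes interferon-γ and can carry receptors and granule proteases shared with natural killer (NK) cells. Granzymes enter a target cell with perforin and trigger its death. NK cells and the related liver ILC1 carry Ncr1 (NKp46) but no rearranged antigen receptor on their surface, so the receptor and CD3 genes are what separates them from γδ T cells of similar content.

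The arms were told apart by 3 antibody hashtags, of which Hash3 marked D0, D19 and liver D5-DT, Hash4 marked D5, STOP and LN D5-DT, and Hash5 marked D9, each within its own pool. The oligos are shown because they assign a cell to its condition within its pool, and all their letters are read.
Hash3: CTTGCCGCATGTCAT
Hash4: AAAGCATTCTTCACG
Hash5: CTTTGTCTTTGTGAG
Members carried these tags well above background, with a median of 1886 tag UMIs at D0, 1829 at D5, 1610 at D9, 2778 at D19, 3792 at STOP and 871.5 in D5-DT. No barcode was a member in more than 1 library, and at most 5 members of a pool had the barcode of a called cell in any other library.

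The 3 pools held between 34142354 and 58079090 RNA UMIs. Median UMIs per member were 4625 at D0, 4646 at D5, 6166 at D9, 4302.5 at D19, 4059 at STOP and 6311.5 in D5-DT. Members were deeper than the Scart and the remaining cells at D9 (5013 and 5048), D19 (2700 and 2652), STOP (3282 and 3174) and D5-DT (5380 and 5031), and shallower than both at D0 (4780 and 5045) and D5 (4905 and 4768.5). Shares of cells with a UMI can follow these gaps in depth. The part of free RNA, of doublets and of true expression in granzyme counts of other cells was not tested. Neither was the part of free RNA in the granzyme counts of members at the minimum. Of cells with at least 5 Cd163l1 UMIs, 31.4% at D0, 26.3% at D5 and 51.6% in D5-DT had a Gzma UMI, against 15.5% at D9, 11.5% at D19 and 6.94% at STOP. Such cells met the granzyme and receptor minimum in 13.9% of cases at D5 (47 of 339), and those had a median of 13220 UMIs against 5672 for all of them. The same share was 7.84% at D0, 1.21% at D9, 1.82% at D19, 0.694% at STOP and 7.03% in D5-DT. Of cells with at least 3 UMIs of 5830411N06Rik, which marks the Scart2 kind, 4.55% at D0 (1 of 22), 20% at D5, 16.3% at D9, 6.20% at D19, 5.62% at STOP and 47.1% in D5-DT had a Gzma UMI.

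NK-like cells were abundant at D0 and D5 and scarce at D9. They were 173 of 697 liver cells at D0 (24.8%, interval 21.7 to 28.2) and 1093 of 3928 at D5 (27.8%, 26.4 to 29.3). At D9 they were 95 of 2623 (3.62%, 2.94 to 4.41). In the other pools they were 422 of 6652 at D19 (6.34%, 5.77 to 6.96), 47 of 1633 at STOP (2.88%, 2.12 to 3.81) and 334 of 2035 in D5-DT (16.4%, 14.8 to 18.1). The D9 share was 24.2 percentage points below D5 (22.6 to 25.8 in size) within 1 pool. D5 stood 3.01 points above D0, with an interval that included 0 (-0.653 to 6.48).

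The share of members depends on how many Scart cells an arm held, so it was also taken without them. The remaining cells, which had no Scart UMI and were not members, still held RNA of that kind. Trdv4, a receptor gene common in Scart cells, was seen in 8.25% of the remaining cells at D0 and 7.80% at D5. At D9, D19, STOP and D5-DT it was in 17.3%, 46.7%, 26.1% and 11.8% of them. Trdv4 was more common in members than in the remaining cells at D0 (24.9%), D5 (16.9%) and D5-DT (16.2%), and less common at D9, D19 and STOP. It therefore does not mark Scart-like cells alone. The shares on this denominator can thus still follow Scart-like cells without a Scart UMI. Among cells without Scart1 or Scart2 RNA, members were 36.3% at D0, 48.4% at D5, 18.4% at D9, 18.6% at D19, 15.9% at STOP and 32.0% in D5-DT. On this denominator D5 was 12.0 points above D0 (7.08 to 16.8), D9 was 30.0 points below D5, and the STOP difference from D19 was -2.72 points with an interval that included 0 (-7.03 to 2.21). With cells reduced at random to 1000 UMIs before the gate was applied (thinning), members were 12.5%, 19.9%, 1.41%, 2.77%, 1.90% and 7.67% of the cells of D0, D5, D9, D19, STOP and D5-DT. D5 again stood above D0 and both above D9, while the STOP difference from D19 shrank from -3.47 to -0.868 points (-1.61 to 0.00516). D5-DT was 11.4 points below D5 (9.23 to 13.5 in size), across pools.

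**Figure D1:**
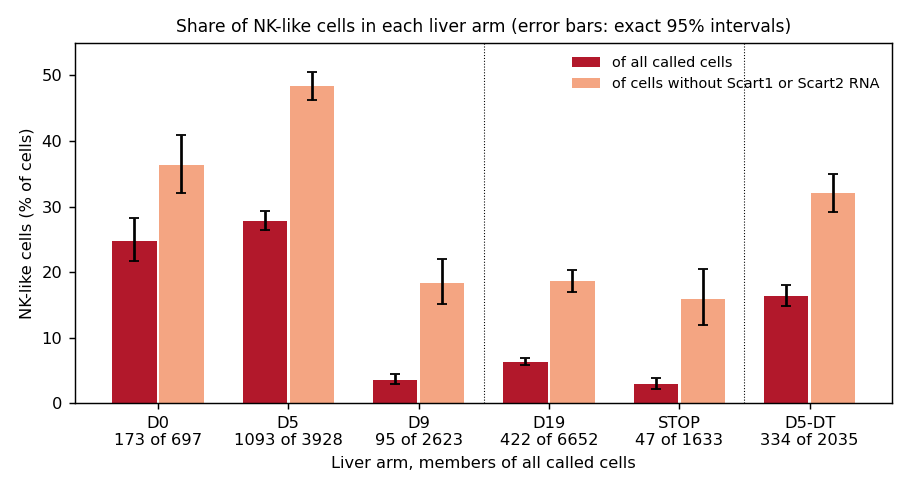
Bars show NK-like cells as a percentage of all called liver cells and of cells without Scart1 or Scart2 RNA in each arm, with exact 95% intervals; dotted lines separate the 3 pools. D9 stands at 3.62% and 18.4%, below D5 at 27.8% and 48.4% on both denominators.

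The granzyme values that chose the members varied. The median Gzma and Gzmb UMIs per member were 14 at D0, 24 at D5, 8 at D9, 17 at D19, 19 at STOP and 9 in D5-DT. At the threshold, 166 members had exactly 2 such UMIs and 388 cells that met all other terms had 1. Ncr1 was seen in 9.64% of the cells just inside and 9.02% of those just outside, Tyrobp in 42.2% and 33.2%, and Fcer1g in 57.8% and 55.9%. Trdc was seen in 94.0% and 93.8%. Ncr1, Fcer1g and Trdc thus lay within 2 points on both sides of the threshold and Tyrobp lay farther apart, so the threshold is a step in a range of granzyme RNA.

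Members carried T cell receptor and CD3 RNA. Trdc, the constant region of the δ chain, had a UMI in 96.5% of members at D0, 95.7% at D5, 100% at D9, 88.6% at D19, 93.6% at STOP and 97.3% in D5-DT. At least 1 of Cd3e, Cd3d and Cd3g, the chains that carry the receptor's signal, was found in 99.1% to 100% of members by arm. Constant genes of the γ chain were found in 80.3% to 97.9%. The lowest values of Trdc and of the γ chain were those of D19, where the levels were also lowest, at 756 CPM for Trdc against 1086 to 1410 in the other arms. CPM scales the UMIs of a gene, summed over the cells, to a fixed total over all genes. Trdc stood at 1796 to 2850 CPM in Scart cells and 1050 to 1517 CPM in the remaining cells by arm. At D19 the 4 δ and γ constant genes summed to 1192 CPM in members, 2237 in the remaining cells and 2831 in Scart cells. In members this sum was below that of Scart cells in every arm. It was above that of the remaining cells at D0, D5 and D5-DT.

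Cells that met the same RNA gate in the LN surface protein libraries, which had not been sorted on the γδ receptor, gave a reference for NK cells of LN. It does not stand for the liver ILC1. Those negative for the CD3 surface tag numbered 253 at D0, 80 at D5 and 79 at D19. They were chosen without CD3 protein and the liver cells were sorted with it. The gap in CD3 RNA between them was thus largely set by these choices. Ncr1 was seen in 87.7%, 95% and 68.4% of them and Eomes, a factor of conventional NK cells, in 69.2%, 62.5% and 43.0%. Any CD3 gene was seen in 12.3%, 15.0% and 12.7% of them, and the γ chain constant genes in 1.25% to 4.74%. Trdc alone separated the 2 kinds less well, since 17.7% to 35.0% of the reference cells had a Trdc UMI. CD3 genes reached 2278 to 4245 CPM in the members by arm, 2211 to 3818 CPM in the Scart and remaining cells of liver, and 55.3 to 107 CPM in the reference.

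**Figure D2:**
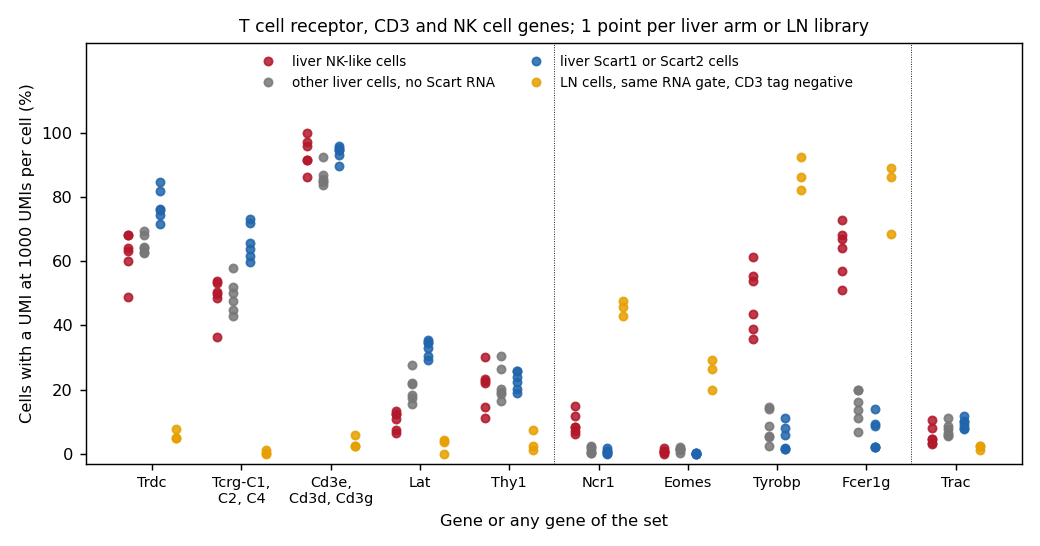
Each point is 1 liver arm or LN library, giving the percentage of its cells with a UMI after thinning to 1000 UMIs per cell. Liver NK-like cells lie with the other liver γδ T cells for CD3 genes and between these and the LN cells for Tyrobp, while LN cells negative for the CD3 tag stand apart with high Ncr1 and Eomes.

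Of the 2164 members, 2045 (94.5%) had both a Trdc and a CD3 UMI and 6 had neither. In the 412 reference cells 12 (2.91%) had both and 258 had neither. Ncr1 was nevertheless found in 38.2% of members at D0, 37.1% at D5, 23.2% at D9, 27.7% at D19, 29.8% at STOP and 23.7% in D5-DT, against 0.867% to 5.93% of Scart cells and 1.89% to 9.03% of the remaining cells. Of the 703 Ncr1-positive members 0 lacked CD3 RNA, where 3 counts would be 0.427%, and 675 (96.0%) had Trdc and CD3 together. CD3 genes stood at 2351 to 4735 CPM in Ncr1-positive and 2245 to 4412 CPM in Ncr1-negative members by arm, higher in the positive ones in 5 of 6 arms and lower at STOP (3855 and 4412). Trdc was lower in the positive ones in 5 of 6 arms, with the widest gap at STOP (864 and 1365). In the reference, 312 of 352 Ncr1-positive cells lacked CD3 RNA. The reference cells came from other libraries, with other free RNA, and the choice on CD3 protein bears on these counts too. In the liver pools, barcodes with 10 to 100 UMIs held Trdc at 1547 CPM (D0, D5 and D9), 1627 (D19 and STOP) and 1047 (D5-DT). In members Trdc stood at 1410, 1227 and 1086 CPM at D0, D5 and D9, 756 and 1215 at D19 and STOP, and 1126 in D5-DT. In the same barcodes of 10 to 100 UMIs, Cd3e stood at 595, 667 and 523 CPM and Ncr1 at 72.8, 13.1 and 65.4, against 641 to 1029 and 86.9 to 167 CPM in members by arm. The gate genes Gzma and Gzmb stood there at 1669, 595 and 818 CPM and at 1099, 396 and 556 CPM. For D5-DT these barcodes held only 30574 UMIs, with 2 of Ncr1, 16 of Cd3e, 25 of Gzma and 17 of Gzmb. Ncr1 had 16 UMIs in those of D19 and STOP. The part of free RNA in the shares of members with a Trdc, CD3 or Ncr1 UMI was not tested, so these shares alone do not settle the lineage of a cell, and the γδ T label rests on the surface sort. Eomes was seen in 0% to 7.49% of members by arm, with 0 of 47 cells at STOP, where 3 counts would be 6.38%. Trac, a gene of the αβ receptor, was seen in 11.6% to 33.2% of members and 22.7% to 37.4% of Scart cells. Trbc1 and Trbc2, constant genes of the β chain, stood at 477 to 673 and 746 to 1211 CPM in members, with median log2 differences from Scart cells of 0.17 and 0.27 against -1.05 for Trac.

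Variable gene RNA differed from that of Scart cells. Tcrg-V6, the chain of IL-17 γδ T cells of fetal origin, was seen in 1.05% to 4.76% of members and 29.9% to 48.7% of Scart cells. Trdv4 was seen in 24.9% of members at D0, 16.9% at D5, 13.7% at D9, 11.1% at D19, 14.9% at STOP and 16.2% in D5-DT, against 56.1% to 77.3% of Scart cells. Tcrg-V1 ran the other way, in 32.4%, 36.0%, 40.0%, 13.7%, 31.9% and 41.9% of members of these arms and in 7.05% to 19.7% of Scart cells. In the remaining cells it was seen in 40.6%, 31.3%, 23.0%, 8.12%, 22.1% and 37.9%, above the members at D0. Trgv2 was common in members and Scart cells, in 54.0% to 80.0% and 40.9% to 64.4%. A missing UMI does not show that a chain was absent.

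Members were also set against the remaining γδ T cells. In each arm, genes with a mean of at least 50 CPM over both groups were compared, and a gene was past 2-fold when the log2 difference with 10 CPM added was at least 1 in size. Of 2213 genes compared in all 6 arms, 25 (1.13%) were past 2-fold higher in every arm and 6 (0.271%) lower. Among the higher were Klra5 and Klra9, members of the Ly49 receptor family, with Klra5 at 359 to 548 CPM in members by arm and 34.3 to 80.9 in the remaining cells. Ccl4 and Xcl1, chemokines that draw lymphocytes and dendritic cells, and Cd160, Cd244a, Klrb1f, Klra7, Cd7, Cd8a, Itga1 and Ncr1 were also higher. The lowest difference over arms was 1.63 for Ccl4 and 1.61 for Xcl1 on the log2 scale. Lower were S1pr1, Klf2, Tcf7, Gpr183, Tmem176a and Tmem176b, of which S1pr1 guides exit from tissue and Klf2 controls it. The remaining cells also held RNA of the IL-17 branch, with Il17a at 23.5 to 1468 CPM by arm. Gpr183, Tmem176a, Tmem176b and S1pr1 were past 2-fold lower than in Scart cells too in all 6 arms, Klf2 in 5 and Tcf7 in 4. The part of such cells in these differences was not tested. S1pr1 stood at 4.71 to 52.3 CPM in members and 97.0 to 158 in the remaining cells. Ncr1, Klra7, Klra9, Klrb1f and Cd244a stood below 50 CPM in the remaining cells of every arm and passed the filter on level through the members. These genes could be compared only if higher in members, though not by 2-fold, so the count of 25 is a description and supports nothing. These contrasts use the cells the gate divided, so they describe its members and were not tested.

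Only genes with enough RNA could be compared, and several passed that filter through the members alone, so no count over a list is given here. In all 6 arms 7 of 16 killer lectin-like receptors, 4 of 12 NK identity genes and 10 of 15 cytotoxic effectors were compared. The NK identity genes Ncr1, Cd244a and Il2rb had median log2 differences of 2.32, 2.25 and 0.64 from the remaining cells, while Eomes and Nfil3, which were not compared in every arm, had -0.37 and -0.05. Fasl, the ligand of the death receptor Fas, stood at 149 to 220 CPM in members, and Prf1, which encodes perforin, at 162, 147, 79.2, 88.4, 62.1 and 85.5 CPM in D0, D5, D9, D19, STOP and D5-DT.

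Against Scart cells 56 of 2340 genes (2.39%) were past 2-fold higher and 71 (3.03%) lower in all 6 arms. The same filter on level holds for these counts, which are a description. Ccl5 stood at 9742 to 15208 CPM in members and 297 to 2019 in Scart cells, and Nkg7, a granule protein of cytotoxic lymphocytes, at 935 to 2089 and 54.1 to 427. Both values in Scart cells were highest at D0, D5 and D5-DT, the arms with the highest shares of members, as was the share of Scart1 cells with a Gzma UMI, but not that of Scart2 cells, which was lowest at D0. The part of free RNA in this was not tested. In the other direction, Il17a stood at 9.60 to 77.6 CPM in members and 677 to 2826 in Scart cells.

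**Figure D3:**
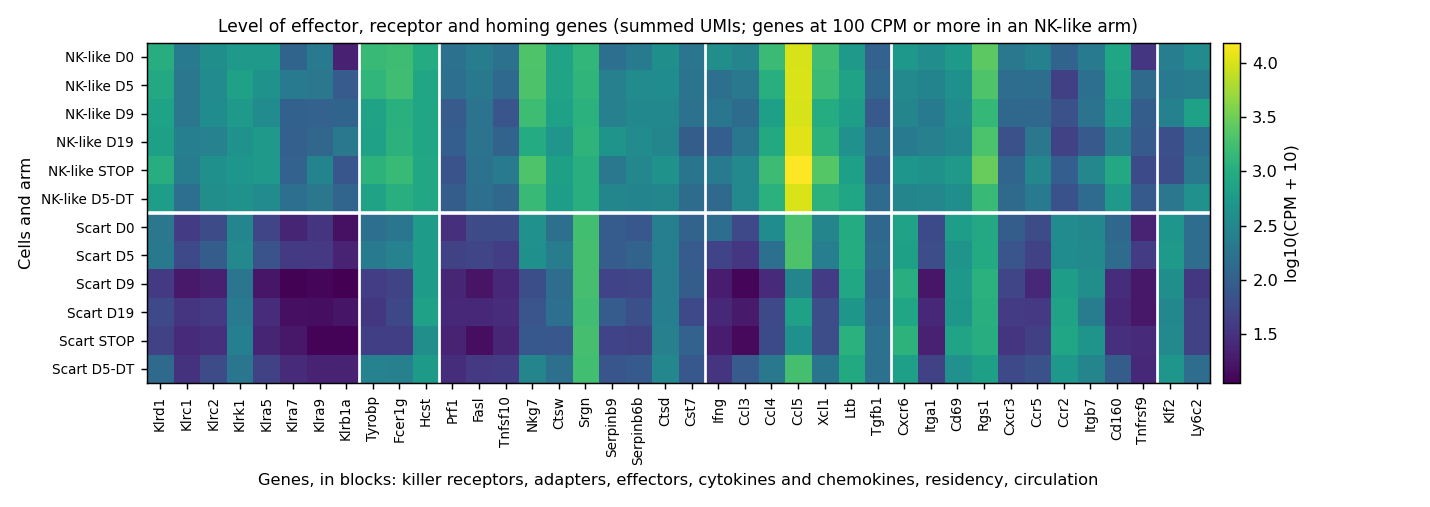
Colours give log10(CPM + 10) of receptor, adapter, effector, chemokine, residency and circulation genes in NK-like and Scart cells of each liver arm. Ccl5 is the brightest gene in the NK-like rows, and Scart cells of D0, D5 and D5-DT are brighter than those of D9, D19 and STOP for Nkg7, Ccl5 and Tyrobp.

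Genes of tissue residency and of circulation were both found in the members, and those of each list varied. Itga1, an integrin chain of resident lymphocytes, was seen in 78.0% of members at D0, 68.3% at D5, 63.2% at D9, 61.1% at D19, 83.0% at STOP and 63.5% in D5-DT, and Itga2 in 4.26% to 15.6%. Cxcr6, the receptor of a chemokine of liver sinusoids, was seen in 54.3% to 80.9%, but its median log2 difference from the remaining cells was 0.13, and it was past 2-fold lower than in Scart cells in 5 arms. Itgae, another integrin chain of resident lymphocytes, stood at only 1.18 to 20.7 CPM, and Ccr2 was past 2-fold lower than in the remaining cells in 5 arms. S1pr5, Cx3cr1 and Klrg1, genes of circulating effector cells, were seen in at most 1.5%, 1.5% and 2.31% of members in any arm. Ly6c2 and Klf2, in the circulation list with S1pr5 and Cx3cr1, stood at 149 to 682 CPM and 51.7 to 260 CPM. A Ly6c2 UMI was seen in 12.8% to 50.5% of members. Zfp683, a residency factor, was seen in 4.5% to 8.68%. Tbx21, which directs interferon-γ production, was seen in 26.9% to 40.5%.

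Members at D5 had more Tnfrsf9 and Ikzf2 RNA and less Ifng RNA than those at D0. Of 2865 genes, 9 (0.314%) were past 2-fold higher and 15 (0.524%) lower at D5. Tnfrsf9 (4-1BB, an activation-induced costimulatory receptor) stood at 24.9 CPM at D0 (15.4 to 38.0) and 126 at D5 (117 to 135), a log2 difference of 1.96, with a UMI in 9.25% and 36.5% of members. It was also higher at D5 than at D0 in the Scart and the remaining cells. Over all arms it stood at 7.87 to 30.8 CPM in Scart cells and 12.0 to 42.4 in the remaining cells. Ikzf2 (Helios) stood at 149 and 494 CPM, with a UMI in 34.7% and 68.6%. Ikzf2 was also past 2-fold higher in the remaining γδ T cells, at 188 and 392 CPM, while in Scart cells it was at 262 and 244 CPM. Serpina3g, Bcl2l11 (Bim, a promoter of cell death), Fkbp5 and Car2 were higher at D5 by 1.15, 1.09, 1.21 and 1.03. These differences fell below 2-fold in 3, 6, 1 and 6 of the alternative settings.

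Ifng, the effector cytokine of this lineage, stood at 391 CPM at D0 (350 to 435) and 150 at D5 (140 to 160), a log2 difference of -1.33, with a UMI in 59.5% and 35.1% of members. Its level was also higher at D0 in Scart cells, at 142 and 38.6 CPM, and in the remaining cells, at 260 and 112 CPM. Of the D0 UMIs in members 28.8% came from 5 cells. Ly6a, Cd40lg, Ccr2, Ckb, AW011738 and Selenop were lower at D5 by 1.34 to 2.05 in size. Ccr2, Ckb and Selenop were each below 2-fold or turned in 4 alternative settings, and Selenop was 0.48 with thinning before the gate. Cxcl10 was lower by 3.25 on the log2 scale, but 5 members held all of its D0 UMIs. Cd74 and Lyz2 were higher at D5, and 81.0% of the Cd74 UMIs and 48.2% of the Lyz2 UMIs of D5 members lay in 1 cell, with 97.5% and 96.4% in 5 cells. Lyz2 turned to -0.75 with thinning. Of the lists, 0 of 8 killer receptors and 0 of 11 effectors were past 2-fold in either direction, which with so few genes past 2-fold over all genes says nothing particular to these lists, here and in the D9 and D5-DT contrasts. The interferon response genes had a median of -0.65 against -0.04 over all genes, with 1 of 6 past 2-fold (Isg15, lower). The 12 genes of this list summed to 909 and 521 CPM in members at D0 and D5. The sums were also lower at D5 in Scart cells, at 714 and 352 CPM, and in the remaining cells, at 945 and 670.

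At D9, 95 members were found, and their levels of Ly6c2 and Il7r were above those of D5 when the gate used all UMIs. Of 2701 genes, 4 (0.148%) were past 2-fold higher and 19 (0.703%) lower. Ly6c2, a surface protein of memory and circulating T cells, stood at 360 CPM at D0, 224 at D5 (212 to 236) and 682 at D9 (618 to 750), with a UMI in 28.3%, 30.6% and 50.5% of members. In Scart cells it was 138 CPM at D5 and 26.2 at D9, the opposite direction. Il7r, the receptor of the survival cytokine IL-7, stood at 213 CPM at D5 and 491 at D9, with a UMI in 26.0% and 52.6%. The D9 members were deeper than those of D5. Thinning before the gate changed which cells were members, 37 at D9 and 780 at D5, and levels were still summed from all their UMIs. A cell whose Scart or Mki67 UMIs were lost by thinning could enter. The log2 differences of Ly6c2 and Il7r in these sets were 0.36 and 0.62 in place of 1.56 and 1.17, below 2-fold. Over all alternative settings Ly6c2 fell below 2-fold in 2 and Il7r in 5. The other genes past 2-fold higher were Tmem176b, whose difference turned from 1.45 to -0.74 with thinning, and Gm47283, which falls outside the rule for named genes and stood at 52.8 and 142 CPM.

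Ikzf2 was lower at D9, at 171 CPM with a UMI in 43.2% of members, though its log2 difference of -1.47 was -0.94 with thinning. It was past 2-fold lower in the remaining cells as well, at 392 CPM at D5 and 172 at D9. Trac was lower too, at 98.3 CPM at D5 and 30.7 at D9, while Trbc1 stood at 673 and 625 CPM. The dissociation response genes, which rise with handling of tissue, were lower in 4 of 8 (Hspa1a, Hspa1b, Dnajb1 and Jun) with a median of -1.10 against -0.07 over all genes. Hspa1a stood at 137 CPM at D5 and 35.5 at D9 in members and at 78.4 and 22.6 in Scart cells. In Scart cells 2 of 9 genes of the list were past 2-fold lower and the median was -0.13, and the summed level went from 5335 to 5682 CPM there and from 4059 to 2732 CPM in members. In the remaining cells 3 of 9 were past 2-fold lower, the median was -0.76 and the sum went from 4901 to 4077 CPM. Handling time was not tested. Of 9 killer receptors only Klra7 was past 2-fold (lower), and of 11 effectors none. Apoe, Cd74 and Lyz2 were lower at D9, and 59.5%, 97.5% and 96.4% of their D5 UMIs lay in 5 of 1093 members.

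**Figure D4:**
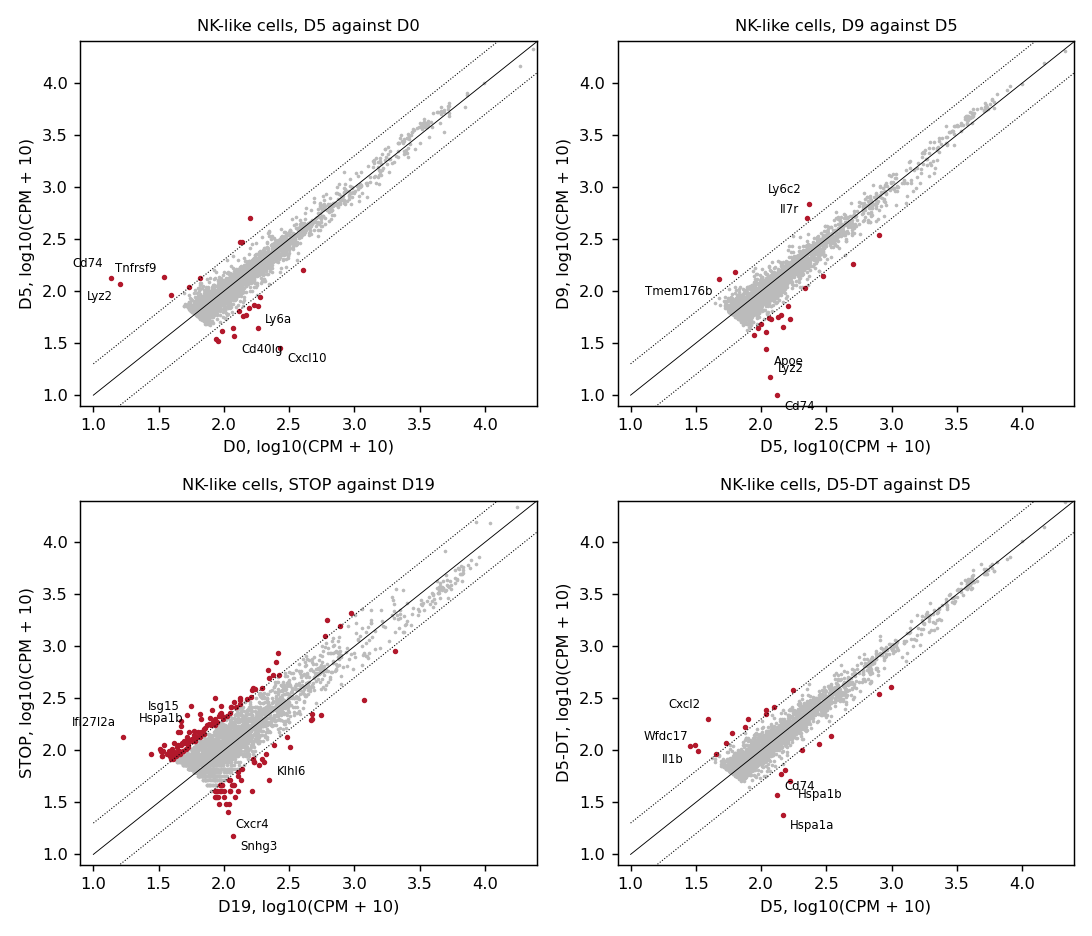
Each point is a gene, with its level in NK-like cells of 2 liver arms as log10(CPM + 10); the dotted lines mark 2-fold and red points lie past it. STOP against D19 has the widest scatter, with 47 members in STOP, and the other 3 panels have 23 or 24 genes past 2-fold.

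STOP held only 47 members with 193387 UMIs in all, against 422 members and 1912101 UMIs at D19, and the scatter between these arms was the widest. Of 2832 genes, 110 (3.88%) were past 2-fold higher and 51 (1.8%) lower in STOP. Itgb7, an integrin chain of gut and tissue homing, stood at 74.8 CPM at D19 (63.0 to 88.1) and 305 at STOP (232 to 394), with a UMI in 26.5% and 72.3% of members. It was also higher in Scart cells, at 220 and 464 CPM. Cxcr6 stood at 212 and 486 CPM, and Cd160 at 248 and 858. Cd160 was also higher at STOP in the remaining cells, at 41.8 and 149 CPM, and stood at 15.9 and 20.8 in Scart cells. Itgb7, Cxcr6, Cd160 and Ccr2 made 4 of 10 residency and homing genes past 2-fold higher, with none lower. The whole list summed to 3430 and 6029 CPM in members, 3527 and 4425 in Scart cells and 2854 and 3122 in the remaining cells. In members the 12 CD3 and T cell signalling genes were higher at STOP as well, at 3083 and 5709 CPM.

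The interferon response genes Ifi27l2a, Isg15 and Igtp were past 2-fold higher at STOP. Of the Isg15 UMIs of STOP members 62.5% lay in 1 cell, and of the Ifi27l2a UMIs 95.8% lay in 5 cells. Hspa1a and Hspa1b were higher by 2.03 and 2.27, with 88.6% and 78.0% of the UMIs in 5 cells, and both were also past 2-fold higher in the Scart and the remaining cells. Rbm3, a cold-induced RNA-binding protein, stood at 1170 CPM at D19 and 295 at STOP in members and at 1081 and 439 in Scart cells. Klhl6, Snhg3 and Serpina3f were lower by 2.12, 2.95 and 2.01. Of 8 killer receptors Klra9 was past 2-fold higher and Klrb1a lower, and of 11 effectors Nkg7 and Tnfsf10 were higher and Serpinb9 lower. Klrb1a, a receptor of the NK1.1 family, was seen in 46.0% of members at D19 and 21.3% at STOP, and Serpinb9, an inhibitor of granzyme B, in 71.1% and 38.3%.

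Members of D5-DT differed from those of D5 in few genes. Of 2862 genes, 13 (0.454%) were past 2-fold higher and 11 (0.384%) lower in D5-DT. Lilr4b stood at 69.8 CPM at D5 and 191 in D5-DT, and Nr4a3, a target of receptor signalling, at 49.9 and 135. Lilr4b had a UMI in 23.9% of members at D5 and 45.2% in D5-DT, and Nr4a3 in 17.7% and 42.8%. Gzmc, a granzyme not used in the gate, was lower at 141 and 54.7 CPM, with 57.0% of its D5-DT UMIs in 5 cells. Of 10 killer receptors and 11 effectors none was past 2-fold. The dissociation response genes Hspa1a, Hspa1b, Dnajb1 and Jun were past 2-fold lower in D5-DT members, 4 of 8 compared. All 4 stood lower in Scart cells of D5-DT as well, with Jun there at 707 CPM at D5 and 384 in D5-DT, and 1 of 8 compared genes of the list (Hspa1b) was past 2-fold lower. In the remaining cells 2 of 9 were past 2-fold lower.

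RNA of myeloid cells moved with this contrast. The 8 myeloid markers summed to 298 CPM in D5-DT members, with a UMI in 113 of 334 (33.8%) and 72.3% of the UMIs in 5 cells, against 6.13% of members at D5, where 248 CPM came to 86.8% from 5 cells. In the other arms they summed to 4.85 to 31.0 CPM. Cxcl2, Il1b and Wfdc17, genes of myeloid cells, were higher in D5-DT by 2.35, 1.92 and 1.83, and 49.5% and 42.7% of the Cxcl2 and Il1b UMIs lay in 1 cell each. Cd74 was past 2-fold lower in D5-DT in summed UMIs, of which 81.0% at D5 lay in 1 cell, and was higher in D5-DT in 4 alternative settings. It had a UMI in 14.7% of D5-DT and 2.10% of D5 members. The part of free myeloid RNA in the contrast was not tested.

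Among the other cell types, hepatocyte markers summed to 9.94 to 114 CPM in members by arm and the endothelial and stromal markers to 0 to 87.6. The B cell list had a UMI in 21.1% to 66.0% of members, mostly Ighm (57.0 to 191 CPM), while Cd79a and Ms4a1 were at 0 in 3 and 4 of the 6 arms and at most at 5.22 and 0.960 CPM in the others. ILC2, mast cell and basophil markers other than Gata3 summed to at most 1.62 CPM.

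**Figure D5:**
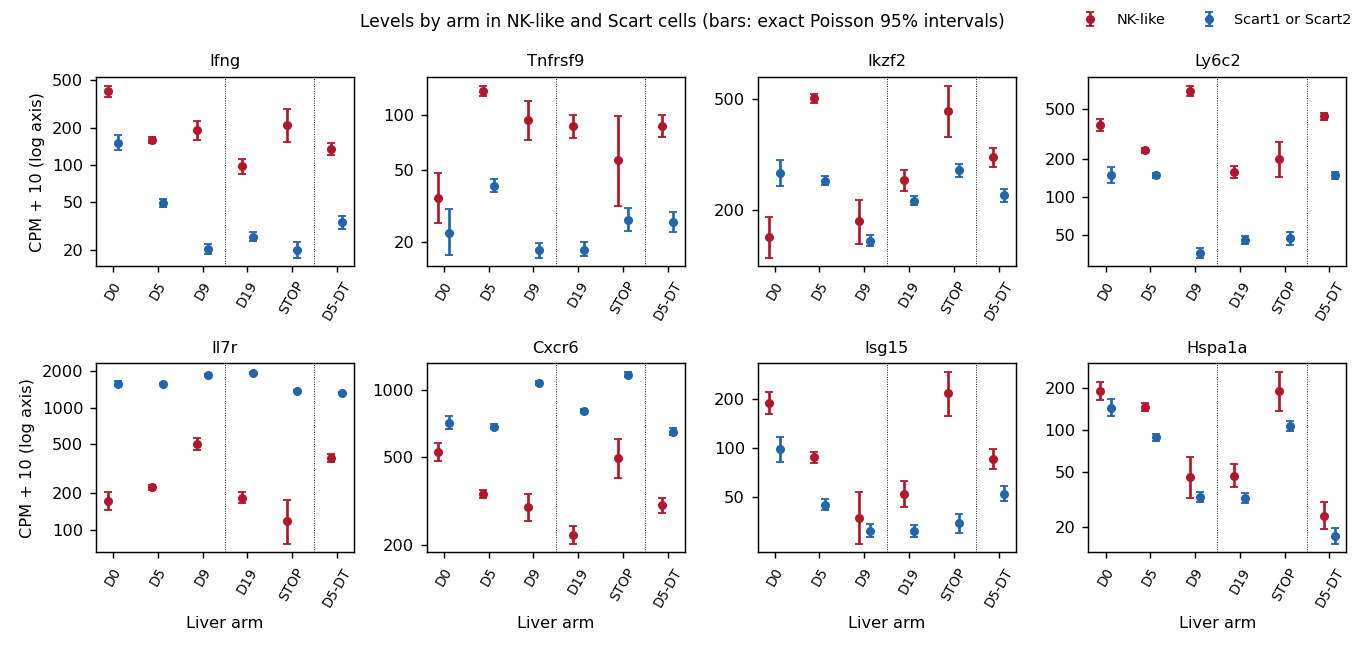
Points give CPM + 10 on a log axis of 8 genes in NK-like and Scart cells of each liver arm, with exact Poisson 95% intervals; dotted lines separate the pools. Ikzf2 in NK-like cells stands at 149 CPM at D0, 494 at D5 and 171 at D9, and Ly6c2 is higher at D9 than at D5 in NK-like cells and lower in Scart cells.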

How the data were processed

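Deposited files were matrices of raw UMI counts per gene and antibody tag, which the authors had made with Cell Ranger on mm10, with no filter for cells; other deposited files held barcodes, gene names and tag sequences. No reads were reprocessed. Cells were called and hashtags assigned by the limits given in the report, separately in each pool, and 1769159, 1603503 and 1490071 barcodes left 7248, 8285 and 3110 cells with a hashtag. The hashtag limits removed 166, 14 and 26 barcodes that met the granzyme and receptor minimum. UMIs were summed over members of an arm and given as CPM. Differences are log2 ratios with 10 CPM added, for genes with a mean of at least 50 CPM, and the named genes are the 8 largest rises and falls without ribosomal, mitochondrial and Gm-numbered genes, the 12 most different from other cells, and the fixed gene lists. Intervals of shares and levels are exact Clopper-Pearson or Poisson intervals, and those of share differences combine the limits of both shares by root sum of squares. The CD3 tag was divided with a 2-component Gaussian mixture, at 29, 32 and 11 tags in the LN libraries of D0, D5 and D19. The LN library called D5 has another day in its description. Free RNA was taken from barcodes with 10 to 100 UMIs. Doublets were not removed; a Scrublet setting was an alternative.

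The members and gene lists were chosen with earlier results of these data known. The comparison was tested on simulated data. Some results are not reported here. Alternatives were other gate, depth, denominator, filter and pseudocount settings. Python 3.11.15, numpy 2.4.6, scipy 1.17.1, pandas 2.3.3, scanpy 1.11.5 and matplotlib 3.10.9 were used.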

Additional observations from a re-analysis of the deposited data

Results flagged for a closer look

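Between D5 and D9, Ly6c2 moved in opposite directions in 2 kinds of liver cell, with a log2 difference of 1.56 in NK-like cells and -2.04 in Scart cells. With thinning before the gate, which changed the set of members, the NK-like value was 0.36. Each condition is 1 arm, and the difference between the 2 kinds of cell was not tested.

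In the LN arm of D5-DT, 44 of 1075 cells (4.09%, interval 2.99 to 5.46) met the gate of the liver cells, above the 0.584% of LN D0, 0.349% of LN D5, 0.513% of LN STOP and 0 of 788 cells of LN D19, where 3 counts would be 0.381%. These cells had a median of 2 granzyme UMIs, with 27 at the minimum, and 48.5% of the LN Scart1 cells of that arm had a Gzma UMI. The LN and liver cells of D5-DT were sequenced in 1 pool, and free RNA of the liver cells was not tested as a source.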

How the results depend on the processing

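No paired analysis was possible because each condition was 1 hashtag arm with no replicate. For the same reason no replicate could be left out. Of the values and counts that answer a comparison, 133 stayed within their interval or within 1.5 times and 45 moved. Of the values of single named genes, 1206 kept direction and side of 2-fold, 82 fell below 2-fold, 11 passed it and 8 turned. The settings of the level filter and of intervals apart leave the value of a gene unchanged. Their results among the 1206 were thus fixed in advance. The causes were not tested. The settings without myeloid UMIs, with Gzmb alone and with intervals apart were chosen after the data had been seen.

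The D9 minus D5 share was -26.7 points at 1 granzyme UMI, -21.6 at 5, -18.4 with thinning before the gate, -29.8 without excluded genes and -30.0 without Scart cells in the denominator. D5 minus D0 was 6.68 with Tyrobp in place of the granzymes, 7.38 thinned, 6.57 without excluded genes and 12.0 without Scart cells. STOP minus D19 was -0.868 thinned. D5-DT minus D5 was -16.4 without Scart cells and -15.3 without members that had a myeloid UMI.

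Trdc was found in 94.8% of all members, and in 95.9% at 2000 UMIs and 95.8% at 5% mitochondrial UMIs. CD3 genes, at 99.4%, were at 99.9% under both settings, 99.8% at 5 granzyme UMIs, 99.7% at 2 receptor UMIs and 99.7% with T cell receptor RNA required. The last setting keeps only members with a Trdc or CD3 UMI, so its value gives no support. Ncr1, at 32.5%, was at 28.9% with 1 granzyme UMI, 36.9% with 5, 35.1% with 2 receptor UMIs, 36.4% with Tyrobp and 39.9% thinned.

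Genes past 2-fold numbered 24 (D5 against D0), 23 (D9 against D5), 161 (STOP against D19) and 24 (D5-DT against D5). They numbered 8, 10, 45 and 12 with 50 CPM added, 53, 49, 444 and 47 at a mean of 20 CPM, and 113, 92, 870 and 76 with no filter. Thinning gave 46 for D9 and 247 for STOP. Without excluded genes there were 14, 96 and 40 for D5, STOP and D5-DT. Leaving out Ncr1-positive members gave 43 for D9. With free RNA subtracted there were 217 for D5, 368 for D9 and 438 for D5-DT. That setting removed 43.0%, 59.9%, 41.9% and 40.8% of the UMIs of D0, D5, D9 and D5-DT members, by markers that include Ighm, which was common in members, and on 16 free marker UMIs in D5-DT, so these counts do not measure free RNA alone. The estimate exceeded all UMIs of STOP members, so that setting was not run for STOP.

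Thinning before the gate changed the set of members, whose levels were still summed from all their UMIs. The log2 differences then turned for Lyz2 (-0.75) and Selenop (0.48) in D5 against D0. They also turned for Tmem176b (-0.74) and Emb (-1.66) in D9 against D5. In D5-DT against D5, Cd74 was 0.10 with 2 receptor UMIs, 0.88 with Tyrobp, 1.56 without excluded genes and 0.14 with T cell receptor RNA required.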

Other observations

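Klrb1a, a receptor of the NK1.1 family that the gate did not use, differed between D0 and the other liver arms. It was seen in 4.62% of NK-like cells at D0, 26.9% at D5, 26.3% at D9, 46.0% at D19, 21.3% at STOP and 30.2% in D5-DT, and stood at 11.8, 80.4, 107, 192, 67.2 and 108 CPM. The mean of D0 and D5 was below the 50 CPM required for a comparison, so the gene is not counted in the contrast of these arms. The D0 value was below that of every other liver arm. Serpinb9, an inhibitor of granzyme B, stood at 148 CPM at D0, 248 at D5, 250 at D9, 464 at D19, 191 at STOP and 298 in D5-DT. In the remaining cells Klrb1a stood at 3.01 to 18.7 CPM by arm and Serpinb9 at 95.2 to 192, both lowest at D0 as well. In Scart cells they stood at 1.27 to 13.2 and 37.4 to 82.2 CPM, both lowest at D9. With 1 arm per condition these differences were not tested.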
